A study of Drosophila melanogaster with 3 samples.

Results

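REPTOR is a fly gene on chromosome arm 3R (FBgn0039209, dm6, 24557368 to 24582864, minus strand), and 9 of the 5208 peaks in the authors' optimal list had their summit inside it or within 5 kb of it. The gene was taken by its Ensembl annotation, as 1 of 13945 protein-coding genes on the 6 main arms, and every listed summit in that window of 35.5 kb was collected from the optimal list, the pooled list and the lists of 3 replicates. Chromatin bound by a GFP-tagged protein was pulled down with an antibody to GFP and sequenced (ChIP-seq), in whole Drosophila melanogaster embryos of mixed sex aged 0 to 24 h. The 3 biological replicates, numbered 1, 2 and 4, form a single group of embryos from a stable transgenic line, each from its own biosample, and no untagged or treated group was among the samples used here. The labels disagree on the tagged protein: strain, source and antibody fields give CG18619 (REPTOR-BP), while the description and a note give REPTOR with GFP at its C terminus, so below it is called the tagged protein. The sources used here do not give the promoter that drives the fusion.

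REPTOR and REPTOR-BP are basic leucine zipper (bZIP) transcription factors of the TORC1 pathway, which couples growth to nutrients. When TORC1 is active, REPTOR is phosphorylated and held in the cytoplasm by 14-3-3 proteins. When TORC1 is inhibited, it enters the nucleus, binds DNA together with REPTOR-BP and activates genes of the starvation response.

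The annotation gives REPTOR 7 isoforms from 4 start sites, which share most of their coding sequence. The first start site, at 24582864, serves isoforms RB, RD and RE, and the second, 5411 bp downstream, serves RA and RF. The last pair, 10369 and 10899 bp downstream of the first, belong to RC and RG. Coding exons lie only between 24560211 and 24562842, at the 3′ end of the gene, and encode 755 amino acids in RA, RB, RC, RD and RG and 814 in RE and RF. The start sites therefore differ in untranslated first exons and in the introns that follow them. The peaks are numbered below 1 to 9 from the 5′ to the 3′ end of the gene, and distances are to the summit.

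**Figure D1:**
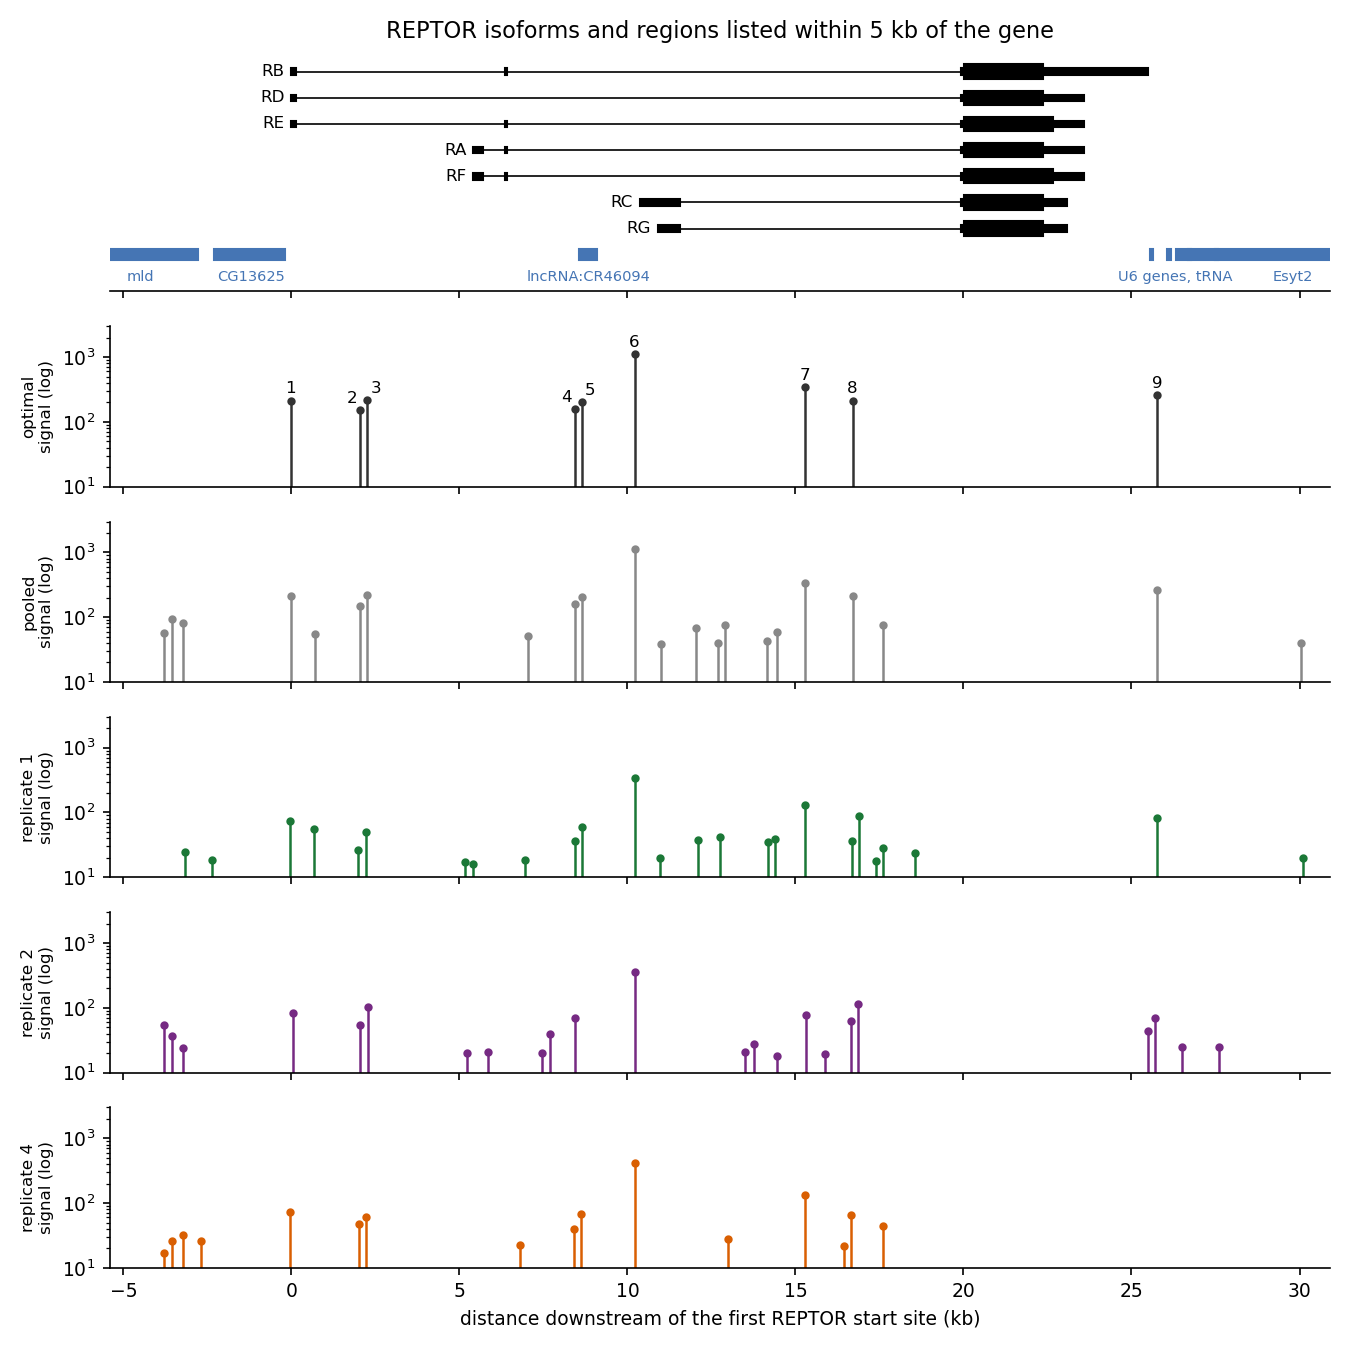
REPTOR isoforms (thin boxes exons, thick boxes coding sequence), neighbouring genes in blue, and below them every listed region in the window of 35.5 kb, placed by its summit in kb downstream of the first start site. Stem height is the authors' signal on a log axis, on each list's own scale; peak 6 at 10.21 kb is the tallest in every list, and no region has its summit in the coding exons.

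The windows below are the dm6 reference around a summit, 5′ to 3′ on the strand of REPTOR except where stated, and they are shown because they carry the strongest peak, the peak at the first start site, an internal repeat, a bZIP core word and the neighbouring small nuclear RNA gene. Peak 6, the strongest, lies just upstream of the RC start site (3R:24572603-24572703, minus strand), and capitals mark its longest run of A and T, 14 bases, a length reached in 20.1% of optimal windows:
peak 6: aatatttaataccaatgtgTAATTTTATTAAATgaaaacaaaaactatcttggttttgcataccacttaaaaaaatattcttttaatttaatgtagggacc
Peak 1 is shown from 50 bp upstream of its summit to the base before the first start site (3R:24582865-24582935, minus strand), and no stretch is marked:
peak 1: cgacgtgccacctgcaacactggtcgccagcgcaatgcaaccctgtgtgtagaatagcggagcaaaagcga
Peak 4 (3R:24574377-24574477, minus strand) holds the same 16 bases in 2 copies, in capitals:
peak 4: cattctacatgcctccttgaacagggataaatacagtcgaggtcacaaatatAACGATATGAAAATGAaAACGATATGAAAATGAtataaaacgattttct
Peak 3 (3R:24580553-24580653, minus strand) has the core of the cAMP response element, a site of many bZIP factors, in capitals:
peak 3: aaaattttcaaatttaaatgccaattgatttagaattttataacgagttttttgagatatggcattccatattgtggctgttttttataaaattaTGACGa
Peak 9, beyond the 3′ end of REPTOR (3R:24557044-24557144, plus strand, the strand of snRNA:U6:96Ac), is likewise unmarked:
peak 9: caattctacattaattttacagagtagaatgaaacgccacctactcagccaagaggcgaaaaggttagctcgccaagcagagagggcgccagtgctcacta

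G and C made up 21.8% of the window of 101 bp at peak 6, and 6.82% of all 5208 optimal windows were as low. At peak 1 the share of G and C was 52.5%, and 5.05% of optimal windows were as high. The 9 windows had a median of 31.7% G and C, against 33.7% for all optimal windows, so peaks 6 and 1 stood near opposite ends of the range while the set as a whole did not. Of 10 short binding words searched on both strands and spelled out in the next sentences, 1 of the 9 windows held any, against 16.8% of optimal windows. That was TGACG in peak 3, a word found in 6.72% of optimal windows, and the full palindrome TGACGTCA, which contains it, was in none of the 9 and in 0.173% of optimal windows. The other words, absent from all 9, were in 0.96% (TGACTCA), 0.154% (TTACGTAA), 4.3% (GTAAACA), 1.5% (TATCGATA), 1.09% (GGTCACAC), 0.96% (CACGTG), 1.19% (GAGAGAG) and 1.06% (TATAAAAG) of optimal windows. Absence of a word says only that these letters are not in the window. The repeat in peak 4 was looked for after the sequence was seen. A word of at least 16 bases in 2 copies was present in 0.115% of optimal windows, 6 in all, and the word itself occurred 3 times on the 6 arms, 2 of them here.

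The strongest peak of the locus lay at an internal start site. Peak 6 (24572458 to 24572823) had its summit 158 bp upstream of the start site of RC, inside the long introns of the isoforms that start farther upstream, with a signal of 1116 and rank 174 in the optimal list. Its signal was 342 in replicate 1, 358 in replicate 2 and 414 in replicate 4, and its ranks there were 195, 94 and 240, a mean rank of 176.3 ± 74.8 (SD, n = 3). The 3 replicate summits fell within 4 bp of each other, and peak 6 was the highest region of the window in every replicate. An optimal summit ranked 174 or higher lay inside 105 of 13945 protein-coding genes (0.753%), REPTOR among them.

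The first start site carried a weaker peak. Peak 1 (24582657 to 24583112, signal 213, rank 3263) had its summit 21 bp upstream of the start shared by RB, RD and RE, between REPTOR and the 3′ end of the neighbouring gene CG13625. In replicates 1, 2 and 4 its signal was 73.9, 83.8 and 74.0, on each list's own scale. Its ranks there were 3079, 2196 and 3751, a mean rank of 3008.7 ± 779.9 (SD, n = 3). The replicate summits were spread over 81 bp, 33 and 38 bp upstream of the start site in replicates 1 and 4 and 43 bp downstream, in the untranslated first exon, in replicate 2. Relative to peak 6 of the same replicate, the signal of peak 1 was 21.6%, 23.4% and 17.9%, a mean of 21.0% ± 2.84 (SD, n = 3).

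The other pair of start sites had no optimal peak within 500 bp. At the RA and RF start, replicate 1 listed 2 weak regions, the nearer 15 bp upstream at rank 28378 and the other at rank 25673, and replicate 2 listed 2 at ranks 21967 and 23518. The pooled list and replicate 4 held none there. At the RG start, which lies 688 bp downstream of the summit of peak 6, the pooled list had a region 100 bp downstream at rank 29881 of 30000 and replicate 1 had one 75 bp downstream at rank 20600. Thus 2 of 4 start sites had an optimal peak, against 18.7% of the 19252 start sites of protein-coding isoforms. Conversely, 2 of the 9 peaks lay at REPTOR start sites, whereas 45.8% of all optimal summits lay within 500 bp of a protein-coding start site.

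Peak 7 was the strongest of the intronic peaks away from start sites. It lay 4381 bp downstream of the RG start (24567457 to 24567670, signal 341, rank 1614), in the intron that precedes the coding exons in all 7 isoforms. Its signal was 130 in replicate 1, 76.8 in replicate 2 and 133 in replicate 4, at ranks 1300, 2607 and 1747, so that replicate 2 was the lowest. The interval of peak 7 was 214 bp wide and that of peak 6 was 366 bp, while the remaining 7 had the most common width of the list, 456 bp. Of all optimal peaks, 12.8% were as narrow as peak 7 and 31.9% were narrower than 456 bp.

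Peak 8, in the same intron (summit 24566163, signal 213, rank 3265), differed in position between lists. Regions within 100 bp of it had signals of 36.3, 62.5 and 64.7 in replicates 1, 2 and 4. Replicates 1 and 2 each listed a stronger region farther 3′, with summits at 24565969 (signal 88.6, rank 2377) and 24565996 (signal 116, rank 1176), which was the second highest of the window in replicate 2. Replicate 4 and the pooled list gave no separate summit there, although their regions at peak 8 reached over 24565996. A weaker region next to it, with its summit at 24565244, was given at that same base by the pooled list, replicate 1 and replicate 4, at ranks 12125, 11787 and 6858, and was missing from replicate 2.

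In the introns upstream of RC, the remaining 4 peaks formed pairs of close summits whose intervals overlapped. Peaks 2 and 3 lay 2041 and 2261 bp downstream of the first start site, 220 bp apart, and peaks 4 and 5 lay 1932 and 1722 bp upstream of RC, 210 bp apart. Among all optimal summits, 15.6% had another within 250 bp. Peak 5 (signal 201, rank 3527) had its summit within the span of lncRNA:CR46094, a long noncoding RNA gene on the plus strand inside REPTOR (24573770 to 24574304), and peak 4 (signal 159, rank 4776) had its summit past the 3′ end of that gene.

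Replicates weighted these pairs differently. Peak 3 (pooled signal 218) had 50.1, 101 and 61.8 in replicates 1, 2 and 4, and peak 2 (pooled signal 150) had 26.1, 54.9 and 47.6. Both were highest in replicate 2, at ranks 1523 and 4794, and lowest in replicate 1, at ranks 5235 and 13177. Peak 4 likewise had 36.7, 69.2 and 39.4, highest in replicate 2. For peak 5 the signal was 58.7 in replicate 1 and 67.4 in replicate 4, and replicate 2 had no region within 100 bp, its nearest being the match of peak 4, 198 bp away. The authors' −log10 q value was 3.28 at peak 4 and 3.06 at peak 2, and 3.94, the highest in the list, at the other 7 peaks, as at 83.2% of all optimal peaks.

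Peak 9 lay beside the 3′ end of REPTOR and closer to other genes. Its summit (24557094, signal 260, rank 2497) was 274 bp beyond the gene and 121 bp upstream of snRNA:U6:96Ac, which encodes the U6 RNA of the spliceosome and is transcribed by RNA polymerase III in the opposite direction to REPTOR. Its signal was 81.8 in replicate 1 and 68.9 in replicate 2, where the summits lay 108 and 52 bp upstream of that gene. Replicate 4 listed no region beyond the 3′ end of REPTOR within the window, the nearest being 10140 bp away. An optimal summit within 500 bp of the start was present at 5 of 32 small nuclear RNA genes (15.6%). Peak 9 itself counts in that share for snRNA:U6:96Ac and also for snRNA:U6:96Ab, whose start lies 402 bp from its summit. The 3 U6 genes next to REPTOR are identical over 107 of 107 bases, and the sources used here do not say how reads shared between them were placed; over the 200 bp upstream, snRNA:U6:96Ac and snRNA:U6:96Ab are identical at 42.5% of positions.

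The longest stretches without a summit lay over the coding end of REPTOR. No region of any of the 5 lists had its summit in a coding exon, bases that make up 9.8% of the gene. Over the genome such summits were also few, 0.499% of the optimal list, 5.01% of the pooled list and 6.66%, 8.87% and 6.86% of replicates 1, 2 and 4, so the count of 0 does not set REPTOR apart. The longest stretch in the window ran from peak 9 to peak 8 in the optimal list (9.07 kb), and it was 8.15 kb in the pooled list, 7.21 kb in replicate 1 and 8.63 kb in replicate 2, each time spanning the coding exons. In replicate 4 the last 7876 bp of the gene had no summit. A longest stretch is not a like measure to a median spacing. Over the genome, the median spacing was 8.09 kb in the optimal list and 1.68 kb in the pooled list. It was 1.86, 1.45 and 1.98 kb in replicates 1, 2 and 4. Within the window, the median spacing was shorter in every list, 1.81 kb in the optimal list and 0.92 kb in the pooled list. In replicates 1, 2 and 4 it was 0.9, 0.77 and 1.17 kb.

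**Figure D2:**
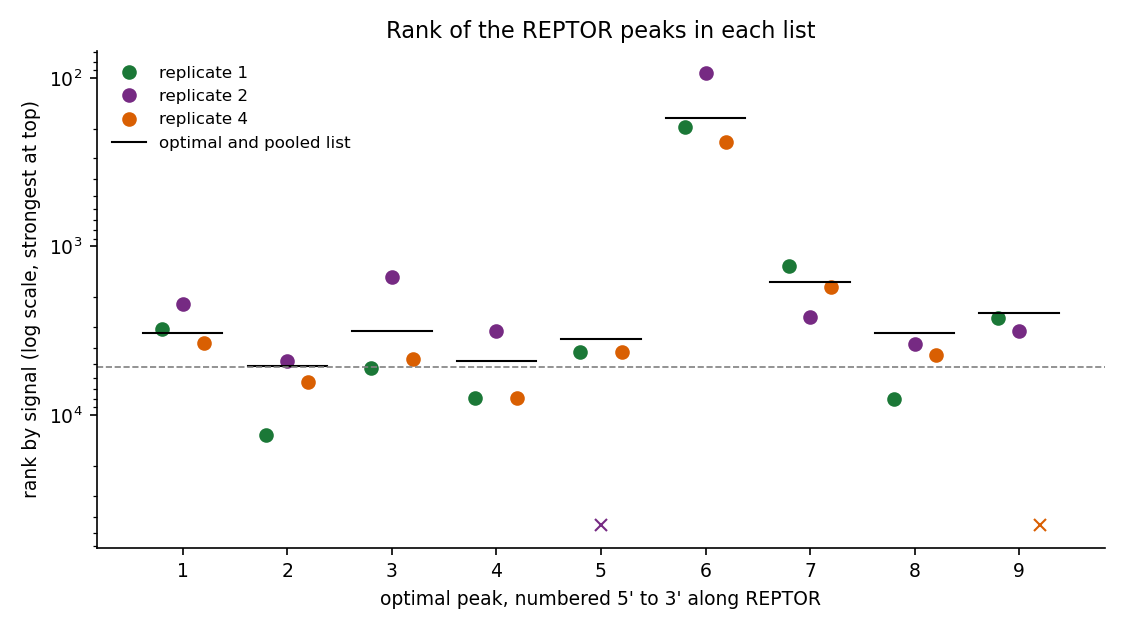
Rank by signal of peaks 1 to 9 in replicates 1, 2 and 4 (points) and in the optimal list, which has the same ranks as the pooled list (bars), with the strongest at the top of a log axis. Crosses mark peaks with no region within 100 bp in that replicate, and the dashed line is rank 5208; only peaks 1, 6 and 7 lie above it in all 3 replicates.

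The replicates shared few of these peaks among their strongest regions. Replicate lists hold 30000 regions, peaks and background together, so each was cut to its 5208 strongest, the length of the optimal list, and a summit within 100 bp counted as a match. Peaks 1, 6 and 7 were matched in all 3 replicates, 3 of 9, against 53.4% of all optimal peaks. Replicate 2 matched 8 of 9 (70.9% of all optimal peaks), replicate 4 matched 6 (81.9%) and replicate 1 matched 5 (82.6%). At REPTOR, then, replicate 2 matched the most peaks, although it matched the smallest share over the genome. In the uncut lists 7 of 9 peaks were matched in all 3 replicates, the exceptions being peak 5 in replicate 2 and peak 9 in replicate 4. Without replicate 1, 5 peaks were matched in both others. The share of all optimal peaks matched was not computed for uncut lists or without replicate 1, so neither count can be set against 53.4%. The optimal list was made from these replicates, so the matches are a description.

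The number of strongest regions inside the gene was 5 in replicate 1, 8 in replicate 2 and 5 in replicate 4, a mean of 6.0 ± 1.73 (SD, n = 3). Replicate 1 had 2 strongest regions in the window with no optimal peak within 100 bp, at 24565969 and at 24582204 (signal 55.2), 660 bp downstream of the first start site. Replicate 2 also had 2, at 24565996 and at 24586666 (signal 54.1), in the gene mld. All 6 of replicate 4 were matches of optimal peaks. The uncut lists had 20, 17 and 11 regions inside REPTOR in replicates 1, 2 and 4, and 16 in the pooled list.

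Beyond the 5′ end of REPTOR, a cluster of regions lay near the 5′ end of mld, which starts at 24585653 on the plus strand. The pooled list had summits 431, 771 and 1014 bp downstream of that start, at ranks 11300, 9474 and 17563. Replicate 2 had them at 429, 749 and 1013 bp, the last at rank 4898, and replicate 4 at 441, 750 and 1014 bp. Within the window, replicate 1 had 1 region inside mld, at 375 bp. Replicate 4 also had a region 96 bp upstream of the mld start, at rank 14157. Replicate 1 had another region 67 bp upstream of the start of CG13625, at rank 23073. None of these was in the optimal list, which held nothing between peak 1 and a summit 15946 bp upstream of REPTOR (signal 156), and on the other side nothing between peak 9 and a summit 12858 bp past the gene (signal 236).

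REPTOR held more peaks than most genes of its size. Of 13945 protein-coding genes, 53 had at least 7 optimal summits inside, REPTOR among them (0.38%), and 39 had at least 9 with the flanks of 5 kb included (0.28%). Among 1281 genes of 0.5 to 2 times its length of 25.5 kb, 20 had at least 7 (1.56%), with a median of 0, an upper quartile of 2 and a highest count of 12 for the others. By peaks per kb of gene, 3.30% of all genes and 1.95% of those of similar length had as many as REPTOR (0.275 per kb). These counts take every summit as separate. In REPTOR they include peaks 2 and 3 and peaks 4 and 5, pairs with overlapping intervals and summits 220 and 210 bp apart. Of the 9, 1 was among the 1000 strongest optimal peaks and 3 were among the 2500 strongest. By construction these cuts keep 1000 and 2500 of all 5208 optimal peaks, so most peaks of the whole list also fall outside them. No test was run, because the samples used here form a single group with no control group among them.

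**Figure D3:**
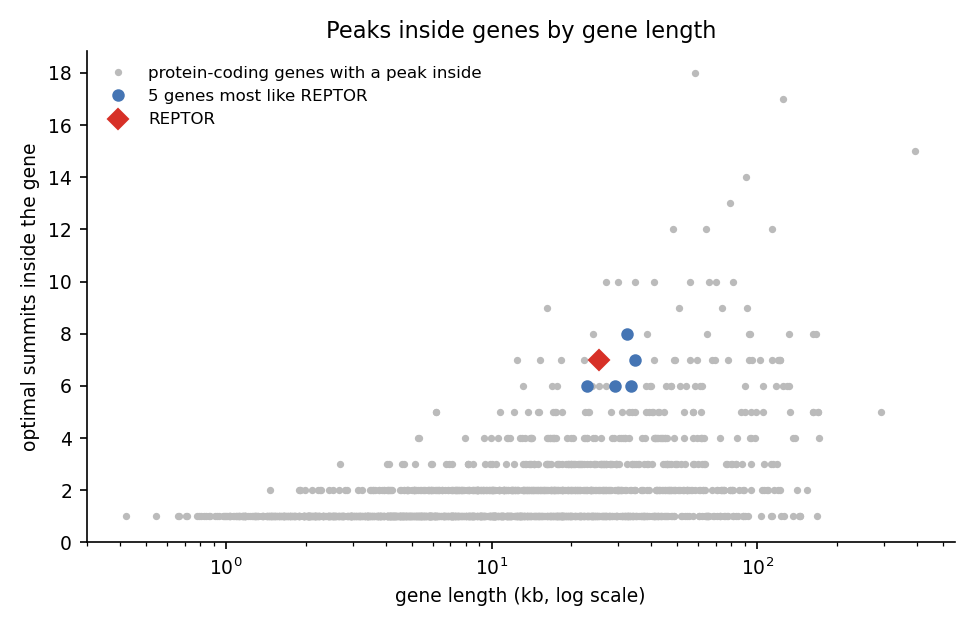
Number of optimal summits inside each protein-coding gene with at least 1, against gene length in kb on a log axis. REPTOR (diamond) has 7 at 25.5 kb, and the 5 genes most like it (blue) have 6 to 8 at 22.8 to 34.6 kb.

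All listed regions, peaks included, were denser over REPTOR than beside it. The window held 0.62 regions per kb in the pooled list and 0.704, 0.648 and 0.451 in replicates 1, 2 and 4, while the 50 kb beyond each flank held 0.30 and 0.32 in the pooled list and 0.22 to 0.34 in the replicates. In the optimal list the window held 0.254 per kb and the neighbouring stretches 0.02 and 0.04. Without the 5208 strongest regions of each list the contrast was smaller. The window then held 0.366 per kb in the pooled list, against 0.28 on each side, 0.507 in replicate 1, against 0.24 and 0.32, and 0.366 in replicate 2, also against 0.24 and 0.32. In replicate 4 it held 0.282, between the 0.20 and 0.30 of its neighbours. Of genes of similar length, 3.12% had at least as many regions inside as REPTOR in replicate 1, 7.88% in replicate 2, 20.1% in replicate 4 and 9.21% in the pooled list. If REPTOR is the tagged protein, the embryos may carry an added copy of part of this locus, and the part of such a copy in these densities was not tested. At REPTOR-BP, the other protein named in the labels, a window of 11.1 kb, the gene with 5 kb to each side, held 14 regions in replicate 2 (1.26 per kb) and none in the other 4 lists. If REPTOR-BP is the tagged protein, an added copy may likewise enter this count, which was not tested. The share of other windows with as many regions was not computed.

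**Figure D4:**
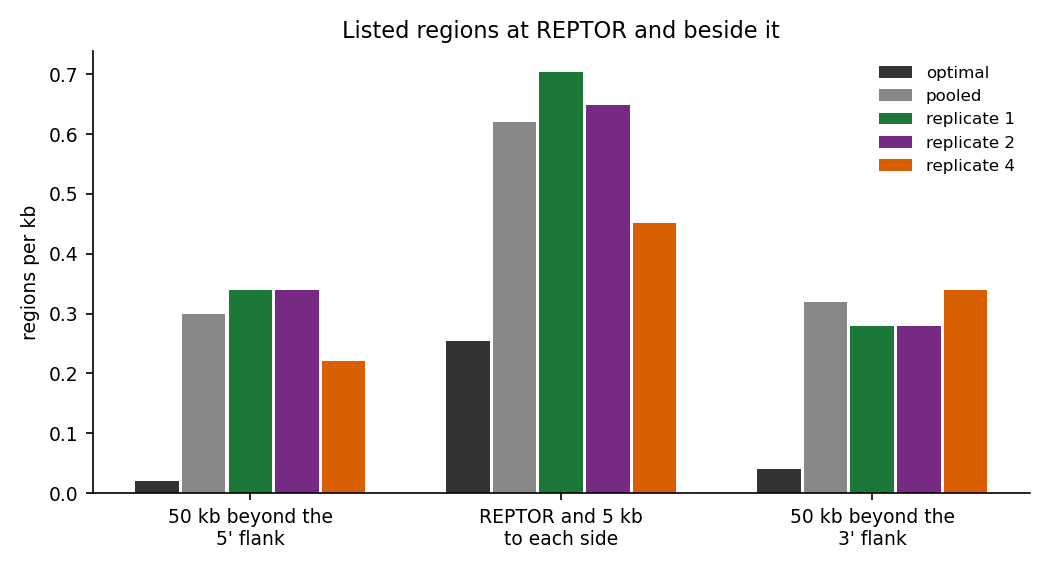
Listed regions per kb at REPTOR with 5 kb to each side and in the 50 kb beyond each flank, for the 5 lists, peaks included. The REPTOR window is the highest of the 3 stretches in every list, 0.451 to 0.704 per kb in the replicates.

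The genes whose counts were most like those of REPTOR were found by the Euclidean distance over 4 counts of summits inside, in the optimal list and in the strongest regions of replicates 1, 2 and 4, among genes of 0.5 to 2 times its length. REPTOR had 7, 5, 8 and 5. The nearest was apt, a transcription factor gene (34.6 kb, on 2R), with 7, 5, 7 and 6 and a distance of 1.41, followed by drn on 3R with 6, 6, 7 and 6 (distance 2.0). The overlapping genes CG12912 and Hr3, the latter a nuclear receptor of the ecdysone response, came next with 6, 6, 7 and 4 each. The fifth was eIF5B, a translation initiation factor gene, with 8, 7, 8 and 5 (distance 2.24). Their strongest peaks ranked 733 (apt), 434 (drn), 76 (shared by CG12912 and Hr3) and 1111 (eIF5B), against 174 for REPTOR. That peak lay within 500 bp of a start site of the gene in drn (13 bp) and eIF5B (150 bp), as in REPTOR. It lay 7274 bp away in apt, 7911 bp in Hr3 and 14561 bp in CG12912, so in 3 of the 5 genes it was away from a start site.

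Among 13 genes tied to REPTOR in the TORC1 response, 6 had an optimal promoter peak, against 20.6% of all protein-coding genes. The 13 were chosen with earlier results of these data known, so the contrast is a description and cannot show enrichment. The 6 with a promoter peak were foxo, a forkhead factor of insulin signalling (signal 659), mTor, the kinase of TORC1 (411), Thor, the translation repressor 4E-BP (326), 14-3-3zeta (224) and 14-3-3epsilon (196), which belong to the family that retains REPTOR in the cytoplasm, and Rheb, the GTPase that activates TORC1 (165). The strongest promoter peak of REPTOR had a higher signal, 1116, than any of these. REPTOR-BP, the TORC1 subunits raptor and Lst8, the TORC1 substrate S6k, Tsc1 and gig of the complex that inhibits Rheb, and unk had no promoter peak. With the flanks of 5 kb included, REPTOR had 9 optimal summits, foxo 6 and Thor 4, and the other 11 had 0 to 3.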

How the data were processed

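Peak lists were made by the authors from chromatin immunoprecipitation in 3 embryo replicates, with chromatin sonicated to 200 to 800 bp, per the labels. Per the deposited inventories, each replicate list came from its alignment and a control, the pooled list from all 3 alignments, and the optimal list from these 4 lists by irreproducible discovery rate, on the dm6 build. Neither aligner, caller nor threshold was given in the sources used here. Column 7 is the deposited signal value, whose normalization is unstated and whose scale differs between lists, and column 9 the deposited −log10 q value. Depth is unknown, since the lists hold no read counts; dm3 lists were not used here.

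Summits were column 2 plus column 10 plus 1, and ranks were by signal. The 5208 optimal peaks were the first 5208 of the pooled list. Genes came from Ensembl release 115 and sequence from the RefSeq Release 6 assembly of the same coordinates. Promoters were 500 bp to each side of a start site, matches 100 bp, and sequence windows 50 bp to each side of a summit, without bases of untranslated exons in printed sequence. Named genes were REPTOR, REPTOR-BP, genes inside REPTOR or touching its flanks, the 13 listed pathway genes and the 5 genes most like REPTOR. The members and lists were chosen with earlier results of these data known. Counts, matches and word searches were tested on simulated data. Python 3.11.15, numpy 2.4.6, pandas 2.3.3, scipy 1.17.1 and matplotlib 3.10.9 were used.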

Additional observations from a re-analysis of the deposited data

How the results depend on the processing

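Of 28 alternatives, 13 moved a count or share, and 15 kept it within 1.5 times, within the replicate SD or, for shares, within the Wilson interval of counting error. Stricter thresholds lowered the counts by construction: inside REPTOR, the 1000 and the 2500 strongest optimal peaks had 1 and 2 summits, and with the flanks 1 and 3. The 3 peaks matched in all replicates became 5 with summits within 200 bp, 1 with the 2500 strongest regions of each replicate, 6 with the 10000 strongest and 7 with uncut lists. Leaving out a replicate gave 4 to 5 matched peaks and a mean of 5 to 6.5 strongest regions inside REPTOR. Uncut lists gave a mean of 16 regions inside it. The shares of all optimal peaks matched under these alternatives were not computed. The share of genes with at least as many summits was 1.56% among genes of similar length, 3.30% by peaks per kb and, by an alternative chosen after seeing the data, 1.95% by peaks per kb at similar length. Flanks of 2 and 10 kb, promoters of 250 and 1000 bp, and interval overlap kept the counts within 1.5 times. Words were in 22.2% of the 9 windows with 150 bp to each side of the summit, against 11.1% as reported. That is inside the Wilson interval because the interval rests on 9 windows. The share of all optimal windows at that width was not computed. With summits within 50 bp, 2 peaks were matched in all replicates. The promoter count at the pathway genes had no alternative. Depth is unknown, so no listed region could be weighed by its reads. No paired analysis was possible because the replicates form a single group.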
